A study of Rattus norvegicus with 11 samples.

Results

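The Wnt pathway genes described here are 43 of the 14324 genes with a symbol of their own on the array. They were taken by name: every gene whose symbol starts with Wnt or Fzd and a number, the co-receptors Lrp5 and Lrp6, the secreted antagonists Sfrp1, Sfrp2, Sfrp4, Sfrp5, Dkk1 to Dkk4 and Wif1, the beta-catenin gene Ctnnb1 with Apc, Axin1, Axin2 and Gsk3b, and the transcription factor genes Tcf7, Tcf7l1 and Lef1. By role they are 17 ligands, 9 receptors, 9 secreted antagonists, 5 genes of beta-catenin and the complex that destroys it, and 3 TCF/LEF factors. Tcf7l2 and a few other family members, such as Wnt11 and Fzd7, were not analysed here.

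Islet RNA of female Sprague-Dawley rats was hybridised to 11 one-colour Affymetrix arrays. All these rats were daughters of chow-fed mothers, were weaned onto chow at 3 weeks and gave islets at 13 weeks of age. The fathers of 6 samples had eaten standard chow (9% fat) and those of 5 samples a high-fat diet, HFD (43% fat), until mating at 15 weeks. These groups are called chow-father and HFD-father, and the question is whether islet transcripts differ with paternal diet. The HFD fathers were heavier and glucose intolerant, and their daughters had impaired glucose tolerance and a weaker early insulin response, by the series' description. The labels number the samples but do not tie the numbers to separate rats, litters or fathers, so the p-values measure the spread between samples, part of which may be technical.

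In the canonical Wnt pathway a secreted Wnt protein binds a Frizzled receptor and an Lrp5 or Lrp6 co-receptor at the cell surface. Binding stops the Axin and Apc complex, which holds the kinase Gsk3b, from marking beta-catenin for destruction, and beta-catenin then enters the nucleus and works with TCF/LEF factors on target genes such as Axin2. Secreted proteins of the Sfrp, Dkk and Wif families keep Wnt proteins or the co-receptors from acting. In the pancreas the pathway is known for roles in development, in beta cell growth and in insulin secretion.

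Values are log2 levels, so a difference of 1 is a doubling, and every difference is HFD-father minus chow-father. The accession order holds a first run of 8 arrays, 4 per group, and a second run of 2 chow-father arrays and 1 HFD-father array, and the deposited values had the same mean in both runs for each probe. The preparations held the defining transcripts of islets: the insulin gene Ins1 had group means of 14.26 ± 0.05 (SD, chow-father, n = 6) and 14.27 ± 0.03 (SD, HFD-father, n = 5), and the glucagon gene Gcg had 14.04 in both groups. They also held exocrine RNA, since the mean level of 19 acinar genes ran from 11.39 to 12.85 over the chow-father arrays and from 12.19 to 12.85 over the HFD-father arrays. In such bulk samples, fewer cells of a type and less RNA per cell cannot be told apart. Array medians ran from 6.137 to 6.202. Arrays have no read depth, and their number limits the precision.

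Of the 43 genes, 0 passed limma's test at an adjusted p under 0.05, and across all 27342 probes the percentage called was 0.0%. Their adjusted p-values ran from 0.369 to 0.998. At an unadjusted limma p under 0.05 there were 6 of the 43, all lower in HFD-father arrays: the ligands Wnt9b, Wnt9a, Wnt10b and Wnt6 and the receptors Fzd6 and Fzd9. Among all genes, 8.25% lay under that p, 5.28% lower and 2.97% higher in HFD-father arrays. The 6 were 14% of the 43. The count was 3 (6.98%) after quantile normalization of the arrays and 3 (6.98%) in the first run alone, where 6.42% and 4.29% of all genes lay under that p. Without HFD-father replicate 5 it was 2 (4.65%), against 5.02% of all genes. No named gene below passed the adjusted test, so the values that follow describe these 11 arrays.

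**Figure D1:**
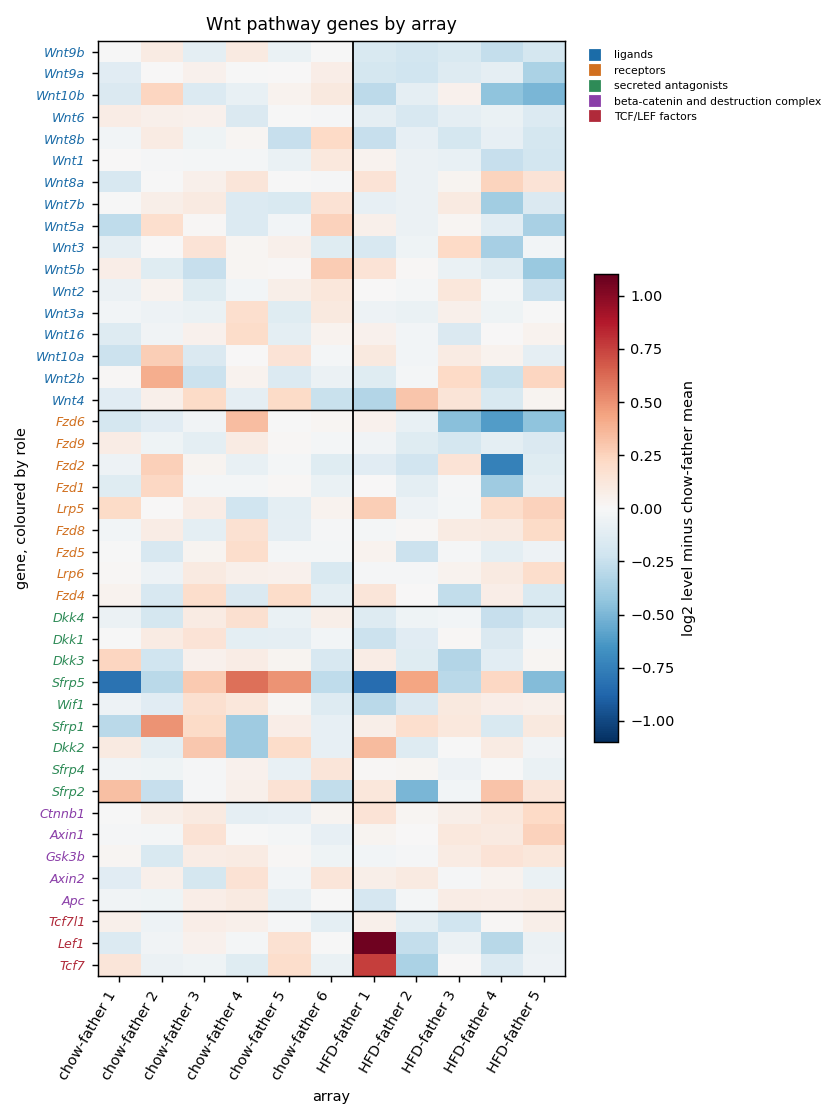
Log2 level of each of the 43 genes (rows, coloured and grouped by role) in each array (columns), as the difference from that gene's chow-father mean, blue lower and red higher. Wnt9b and Wnt9a are pale blue in all 5 HFD-father arrays, Sfrp5 varies in both groups, and Lef1 and Tcf7 stand out in HFD-father 1.

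Promoter sequences are shown for the pair of ligands with the lowest p-values, Wnt9a and Wnt9b, and for the 2 genes of the 30 matched ones whose promoters hold the TCF/LEF core CTTTGAT, Axin2 and Tcf7. They come from RefSeq (GRCr8), cover 250 bases before to 50 after the gene start and run 5′ to 3′ on the gene's strand. Capitals mark GGGCGG or its reverse complement in the first pair and CTTTGAT or its reverse complement in the second.
Wnt9a, chr10:44593441-44593740, plus strand: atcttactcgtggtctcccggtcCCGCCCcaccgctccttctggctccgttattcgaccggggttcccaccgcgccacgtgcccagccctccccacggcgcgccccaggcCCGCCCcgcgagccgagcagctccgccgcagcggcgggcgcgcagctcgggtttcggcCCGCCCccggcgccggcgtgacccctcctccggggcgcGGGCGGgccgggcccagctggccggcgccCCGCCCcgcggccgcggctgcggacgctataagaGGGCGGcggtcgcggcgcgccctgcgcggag
Wnt9b, chr10:89157016-89157315, minus strand: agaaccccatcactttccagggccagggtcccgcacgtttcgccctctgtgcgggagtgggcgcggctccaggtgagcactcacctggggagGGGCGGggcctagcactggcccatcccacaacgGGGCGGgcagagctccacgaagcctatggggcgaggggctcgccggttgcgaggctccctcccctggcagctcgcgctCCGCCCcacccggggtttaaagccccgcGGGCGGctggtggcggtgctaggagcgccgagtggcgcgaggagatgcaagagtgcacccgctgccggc
Axin2, chr10:94398535-94398834, plus strand: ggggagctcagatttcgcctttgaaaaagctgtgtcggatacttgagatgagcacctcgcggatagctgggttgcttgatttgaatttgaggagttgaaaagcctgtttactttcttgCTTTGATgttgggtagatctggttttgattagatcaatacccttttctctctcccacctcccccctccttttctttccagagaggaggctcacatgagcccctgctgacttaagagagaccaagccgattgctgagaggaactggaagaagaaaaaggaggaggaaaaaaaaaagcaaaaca
Tcf7, chr10:36954230-36954529, minus strand: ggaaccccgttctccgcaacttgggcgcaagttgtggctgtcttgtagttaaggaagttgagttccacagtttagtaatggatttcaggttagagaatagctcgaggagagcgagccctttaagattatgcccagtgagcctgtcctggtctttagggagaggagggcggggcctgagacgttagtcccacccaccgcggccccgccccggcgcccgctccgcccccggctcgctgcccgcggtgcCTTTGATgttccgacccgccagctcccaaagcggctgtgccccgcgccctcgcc
The core CTTTGAT, on either strand, is in 2 of the 30 promoters of these genes (6.67%) and in 3.63% of all 33469 promoters of the table. GGGCGG is in 16 of the 30 (53.3%) and in 33.1% of all. The Wnt9a promoter holds 6 matches to GGGCGG and is 80.7% G or C, and the Wnt9b promoter holds 4 and is 72.0%, against a median of 65.3% over the 30 genes and 51.7% over all promoters. Matches of the 2 motifs shared a base in 0 of the 30 promoters and in 1 of all, and a match describes letters only.

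Among the ligands, the secreted Wnt proteins, 13 of 17 lay lower in HFD-father arrays, 3 lay higher and Wnt4 differed by 0.00, with a median difference of -0.09 and a range from -0.26 to 0.10. Over all genes 48.1% lay lower and the median difference was 0.00. The ligand probes other than that of Wnt4 were dim, with mean levels from 4.61 to 6.68, and dim probes in general lay lower in HFD-father arrays. Of the 4618 genes within those levels, 65.4% lay lower, with a median difference of -0.04, and 10.3% lay lower at an unadjusted p under 0.05. For the 16 ligands in that range the same values were 81.2%, -0.09 and 25.0%. After quantile normalization 11 of the 17 ligands (64.7%) lay lower, with a median of -0.05, against 49.0% of all genes (median 0.00). After median centring also 11 lay lower, with a median of -0.07, against 37.2% of all genes (median 0.03). These 2 counts take each gene by its sign before rounding, which without these steps gives 14 of 17.

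Wnt9b, a ligand known from kidney and craniofacial development, was the gene of lowest p. Its levels in chow-father arrays 1 to 6 were 6.39, 6.48, 6.28, 6.49, 6.32 and 6.39, and in HFD-father arrays 1 to 5 they were 6.22, 6.19, 6.22, 6.13 and 6.20. The groups did not overlap, and every HFD-father array lay under the lowest chow-father array. Of all genes, 0.538% had groups that did not overlap with HFD-father lower and 0.349% with HFD-father higher, and Wnt9b was the only one of the 43. The difference was -0.20 ± 0.05 (SE), with a 95% interval from -0.31 to -0.09 and a limma adjusted p of 0.369. The first run alone gave -0.22 and the second -0.16.

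Wnt9a, the close paralog of Wnt9b and a ligand of joint and skeletal development, came next. Its levels were 5.90, 6.03, 6.07, 6.02, 6.03 and 6.10 in chow-father arrays 1 to 6, and 5.83, 5.81, 5.88, 5.93 and 5.68 in HFD-father arrays 1 to 5. The groups overlapped only at chow-father 1, which lay between HFD-father 3 and HFD-father 4. The difference was -0.20 ± 0.06 (SE; 95% interval -0.32 to -0.08), with a limma adjusted p of 0.393. The first run alone gave -0.14 and the second -0.38.

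Wnt10b and Wnt6, ligands known from fat, bone and epithelial tissues, were the other 2 ligands under an unadjusted p of 0.05. Wnt10b ranged from 5.22 to 5.62 (median 5.36) in chow-father and from 4.88 to 5.43 (median 5.09) in HFD-father arrays, which overlapped, with a difference of -0.26 ± 0.11 (SE) and a limma adjusted p of 0.498. HFD-father 4 and 5 held its lowest values, 4.94 and 4.88, and HFD-father 3 lay above the chow-father mean. The Wnt10b difference came to -0.15 in the first run and to -0.58 in the second. Wnt6 ranged from 5.76 to 6.00 in chow-father and from 5.74 to 5.84 in HFD-father arrays, with a difference of -0.12 ± 0.05 (SE; limma's adjusted p = 0.519). All 5 HFD-father arrays lay under its chow-father mean of 5.92.

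In the RefSeq annotation these 4 ligands each sit next to another member: Wnt9b beside Wnt3, Wnt9a beside Wnt3a, Wnt10b beside Wnt1 and Wnt6 beside Wnt10a. The neighbours differed by -0.08 (Wnt3, interval -0.28 to 0.12), -0.02 (Wnt3a, interval -0.16 to 0.12), -0.11 (Wnt1, interval -0.24 to 0.02) and 0.02 (Wnt10a, interval -0.17 to 0.21). Wnt3, which acts in gut stem cell niches among other places, is the second ligand shown by array because of its level. It read 6.62, 6.72, 6.87, 6.74, 6.77 and 6.58 in chow-father arrays 1 to 6 and 6.54, 6.67, 6.94, 6.35 and 6.69 in HFD-father arrays 1 to 5. Its highest and its lowest value were both in the HFD-father group, and without HFD-father replicate 4 its difference was -0.01.

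Wnt4, a ligand that signals largely outside beta-catenin and is made by endocrine cells of the adult islet in mice, had the one bright ligand probe, with a mean of 8.828 and 88.0% of probes below it. Its chow-father levels were 8.70, 8.88, 9.04, 8.73, 9.04 and 8.58, and its HFD-father levels 8.51, 9.13, 8.97, 8.66 and 8.86. The HFD-father arrays spanned the whole chow-father range, and both group means were 8.83. The difference was 0.00 ± 0.12 (SE), with a 95% interval from -0.25 to 0.25, which leaves differences of that size possible.

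The other ligands differed by amounts within their own spread. Wnt8b was -0.16 ± 0.08 (SE; 95% interval -0.32 to 0.00), with all 5 HFD-father arrays under the chow-father mean, and Wnt7b -0.12 ± 0.09 (-0.05 without HFD-father replicate 4). Wnt5a and Wnt5b, ligands that act mainly outside beta-catenin, were both -0.09, and both turned in the first run alone, to 0.03 and 0.06. Wnt2 was -0.03, Wnt16 -0.02 and Wnt2b 0.01. Wnt8a, at 0.10 ± 0.07 (SE), was the ligand with the highest positive difference, and 4 of 5 HFD-father arrays lay above its chow-father mean. On average over the 17 ligands, each taken as its deviation from its mean over arrays, the lowest arrays were HFD-father 4 and HFD-father 5, both at -0.10, and the highest was chow-father 2 at 0.11. HFD-father 4 and 5 also had the widest interquartile range of all probes, 3.12 in both against 2.93 to 3.06 in the others, and the part of that width in the ligand values was not tested.

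**Figure D2:**
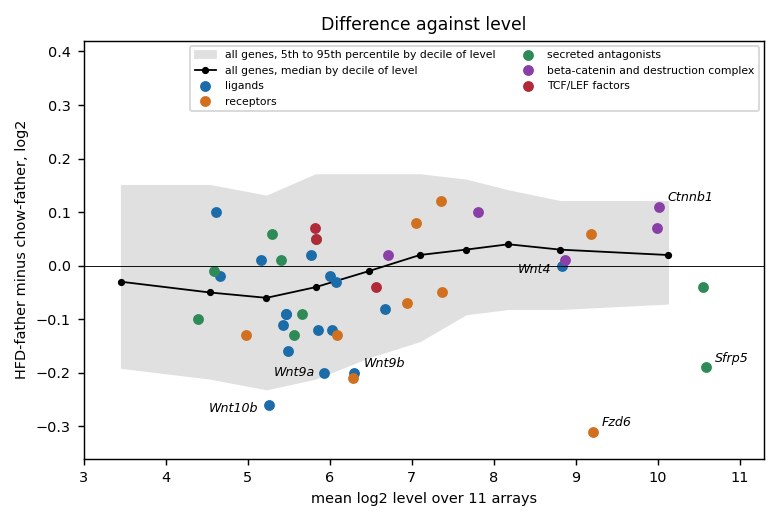
Difference (HFD-father minus chow-father, log2, vertical) against mean log2 level over the 11 arrays (horizontal) for the 43 genes by role, with the median (black line) and the 5th to 95th percentile (grey) of all genes in 10 bins of level. Most ligands sit in the dim range where the median of all genes is also below 0, while Fzd6 lies at -0.31 in a bright range.

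Among the receptors, 6 of 9 (66.7%) lay lower and 3 higher, with a median difference of -0.07. Over all genes 48.1% lay lower, with a median of 0.00. Fzd6, a Frizzled receptor known for planar cell polarity and for restraining beta-catenin signalling, had a difference of larger size than any other of the 43 genes. Its chow-father levels were 9.16, 9.23, 9.31, 9.69, 9.35 and 9.37, and its HFD-father levels 9.40, 9.27, 8.89, 8.74 and 8.91. HFD-father 3, 4 and 5 lay under every chow-father array, while HFD-father 1 and 2 lay inside the chow-father range. The difference was -0.31 ± 0.12 (SE; 95% interval -0.58 to -0.05), and the limma adjusted p was 0.491. By run the difference came to -0.27 (first) and -0.46 (second). Among genes with mean levels from 8.46 to 9.21, the range that Fzd6 closes, the 5th percentile of the differences was -0.08. That percentile leaves out the spread between arrays. Fzd6 ran from 8.74 to 9.69, while the median range of all probes was 0.42. Its unadjusted limma p was 0.12 in the first run alone. Without HFD-father replicate 3, 4 or 5 it was 0.0609, 0.0743 and 0.0591, and without chow-father replicate 4 it was 0.0547. With any other single array left out it stayed under 0.05.

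Fzd9, a receptor known from bone and brain, read 6.23, 6.10, 6.04, 6.24, 6.16 and 6.13 in chow-father arrays and 6.11, 6.02, 5.96, 6.04 and 5.99 in HFD-father arrays. All 5 HFD-father arrays lay under the chow-father mean of 6.15, and the groups overlapped. The difference was -0.13 ± 0.05 (SE; 95% interval -0.24 to -0.01), with a limma adjusted p of 0.493. Fzd2 was -0.21 ± 0.13 and Fzd1 -0.13 ± 0.08 (SE). For both, HFD-father 4 held the lowest value, 5.64 and 4.65, and without that array the differences were -0.08 and -0.06.

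The co-receptors of the canonical pathway lay slightly higher. Lrp6 read 9.17, 9.10, 9.25, 9.21, 9.20 and 8.99 in chow-father and 9.14, 9.14, 9.19, 9.25 and 9.35 in HFD-father arrays, and differed by 0.06 ± 0.06 (SE; 95% interval -0.07 to 0.20). Only HFD-father 5 exceeded the chow-father range. Lrp5, in which loss of function lowers bone mass, differed by 0.12 ± 0.09 (SE; interval -0.06 to 0.31). Fzd8, Fzd5 and Fzd4, the last a receptor of retinal vessels, differed by 0.08, -0.07 and -0.05.

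**Figure D3:**
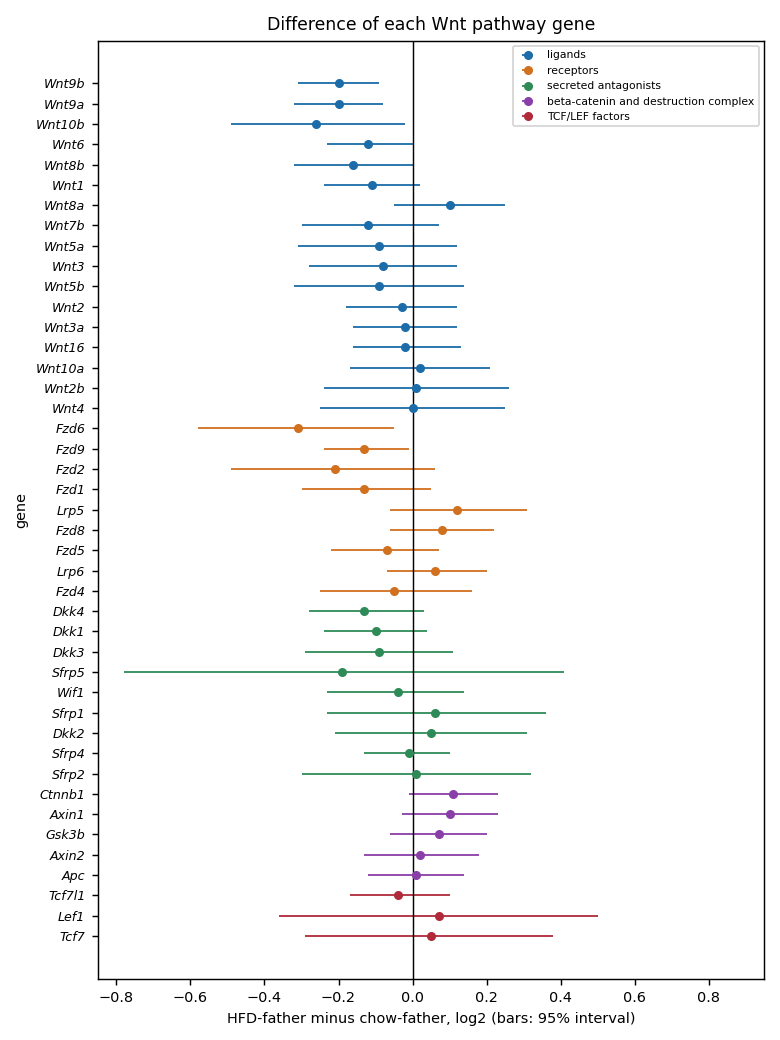
Difference between group means (HFD-father minus chow-father, log2; points) with its 95% interval (bars) for each of the 43 genes, coloured by role and ordered by p within a role. The intervals of Wnt9b, Wnt9a, Wnt10b, Wnt6, Fzd6 and Fzd9 end below 0 before any adjustment, all intervals of the beta-catenin group and of the TCF/LEF factors include 0, and that of Sfrp5 is the widest.

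Among the secreted antagonists, 6 of 9 (66.7%) lay lower, with a median of -0.04, and 0 had an unadjusted limma p under 0.05. Over all genes 48.1% lay lower and 8.25% lay under that p. Of the 9 antagonist probes 7 were under the median level. Of all genes within the levels of the dim ligands, 65.4% lay lower, with a median of -0.04. The probes of 2 antagonists were among the brightest of the array. Sfrp5, a decoy that binds Wnt proteins and is known from fat tissue, had a mean of 10.588, above 97.4% of probes. Its chow-father levels were 9.86, 10.38, 10.96, 11.28, 11.17 and 10.40 and its HFD-father levels 9.84, 11.11, 10.38, 10.90 and 10.20. Low and high arrays occurred in both groups, over a range of 1.43 that exceeds the range of 98.4% of probes. The difference was -0.19 ± 0.27 (SE; 95% interval -0.78 to 0.41), and by run -0.06 (first) and -0.58 (second). Leaving out HFD-father replicate 1 gave -0.02, and leaving out chow-father replicate 1 gave -0.35.

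Wif1, a secreted inhibitor that binds Wnt proteins directly, was as bright, with a mean of 10.546, but varied less. It read 10.51, 10.44, 10.74, 10.69, 10.59 and 10.42 in chow-father and 10.27, 10.41, 10.67, 10.64 and 10.62 in HFD-father arrays. HFD-father 1 lay lowest, HFD-father 2 lay 0.01 under the lowest chow-father array, and the other 3 lay inside the chow-father range. The difference was -0.04 ± 0.09 (SE; 95% interval -0.23 to 0.14).

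The Dkk proteins Dkk1, Dkk2 and Dkk4 block the Lrp co-receptors. Dkk4 read 5.56, 5.43, 5.71, 5.80, 5.55 and 5.69 in chow-father and 5.48, 5.58, 5.59, 5.37 and 5.46 in HFD-father arrays, and differed by -0.13 ± 0.07 (SE; 95% interval -0.28 to 0.03). All 5 HFD-father arrays lay under its chow-father mean of 5.62, and the groups overlapped. Dkk1 read 4.43, 4.53, 4.59, 4.33, 4.34 and 4.41 in chow-father and 4.20, 4.31, 4.45, 4.28 and 4.42 in HFD-father arrays, and differed by -0.10 ± 0.07. With 18.9% of probes below it, Dkk1 had the dimmest probe of the 43, and no test set these probes against background. Dkk3 differed by -0.09, Dkk2 by 0.05, Sfrp1 by 0.06, Sfrp2 by 0.01 and Sfrp4 by -0.01.

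**Figure D4:**
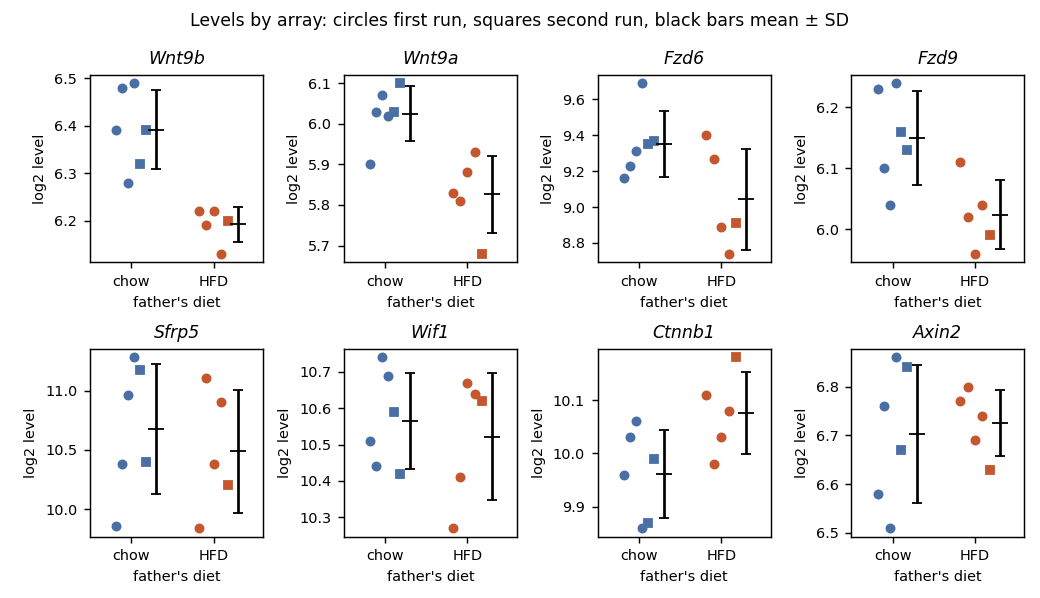
Log2 level (vertical) in each chow-father (blue) and HFD-father (orange) array for 8 genes, each panel with its own scale that does not start at 0, circles for the first run, squares for the second, black bars for mean ± SD. Wnt9b separates the groups, Fzd6 has 3 HFD-father arrays under every chow-father array, and the groups overlap for Sfrp5 and Axin2.

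Genes of beta-catenin and its destruction complex lay slightly higher in HFD-father arrays, 5 of 5 with a median of 0.07. Of the 5, 0 had an unadjusted limma p under 0.05. Over all genes 48.1% lay lower and 8.25% lay under that p. Brighter probes in general lay higher. Of the 8556 genes left without dim probes, these 5 among them, 5500 lay higher, with a median of 0.02. After quantile normalization and in the first run alone, Apc turned to -0.02 and -0.03 and the count lying higher was 4 of 5. It was also 4 of 5 with HFD-father replicate 3, 4 or 5 or chow-father replicate 1, 2, 3 or 5 left out. The 0 became 1 gene, Ctnnb1, after median centring, with eBayes using a trend, and without HFD-father replicate 2. Of all genes, 8.18%, 8.09% and 7.65% lay under that p there. After median centring 9001 of the 14324 genes lay higher, and under that p 736 lay higher and 436 lower. The count became 2, Ctnnb1 and Axin1 at 0.13 each, without chow-father replicate 3, where 7.99% of all genes lay under that p. Their limma adjusted p there was 0.539. Ctnnb1, which encodes beta-catenin, read 9.96, 10.03, 10.06, 9.86, 9.87 and 9.99 in chow-father and 10.11, 9.98, 10.03, 10.08 and 10.18 in HFD-father arrays. All 5 HFD-father arrays lay above its chow-father mean, and 3 of them lay above every chow-father array. The difference was 0.11 ± 0.06 (SE; 95% interval -0.01 to 0.23), with a limma adjusted p of 0.57. By run it came to 0.07 (first) and 0.25 (second).

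Axin1, the scaffold of the complex, read 7.75, 7.74, 7.92, 7.76, 7.74 and 7.67 in chow-father and 7.79, 7.77, 7.88, 7.86 and 8.02 in HFD-father arrays. All HFD-father arrays exceeded 5 of the 6 chow-father arrays, and chow-father 3 lay among them. The difference was 0.10 ± 0.06 (SE; 95% interval -0.03 to 0.23), and by run 0.03 (first) and 0.31 (second). Gsk3b, the kinase that phosphorylates beta-catenin, read 9.98, 9.79, 10.04, 10.05, 9.97 and 9.91 in chow-father and 9.93, 9.94, 10.05, 10.11 and 10.08 in HFD-father arrays, and differed by 0.07 ± 0.06 (interval -0.06 to 0.20). Apc, the tumour suppressor of the complex, differed by 0.01 ± 0.06 (interval -0.12 to 0.14).

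Axin2 is both a part of the complex and a widely used target gene of beta-catenin, and its promoter is printed above. It read 6.58, 6.76, 6.51, 6.86, 6.67 and 6.84 in chow-father and 6.77, 6.80, 6.69, 6.74 and 6.63 in HFD-father arrays. All HFD-father values lay inside the chow-father range. The difference was 0.02 ± 0.07 (SE; 95% interval -0.13 to 0.18), and by run 0.07 (first) and -0.13 (second).

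The TCF/LEF factors showed 1 array apart from all others. Lef1, known from lymphocyte and hair follicle development, read 5.64, 5.75, 5.84, 5.77, 5.96 and 5.79 in chow-father and 6.86, 5.53, 5.73, 5.49 and 5.73 in HFD-father arrays. Tcf7, which encodes the T cell factor TCF-1, read 5.95, 5.75, 5.77, 5.68, 6.01 and 5.74 in chow-father and 6.58, 5.47, 5.82, 5.67 and 5.76 in HFD-father arrays. For both, HFD-father 1 lay above every other array. The differences were 0.07 ± 0.20 for Lef1 and 0.05 ± 0.16 for Tcf7 (SE), and -0.17 and -0.13 without HFD-father replicate 1.

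Several marker lists were highest in this array, lymphocyte markers by the widest gap. Of 10 measured markers, 9 were highest in HFD-father 1, among them the T cell receptor subunit gene Cd3g at 7.08 (3.55 to 4.47 in the other arrays) and the B cell gene Ms4a1 at 5.66 (3.92 to 4.40). Their mean differed by 0.26 between groups (exact permutation p = 0.324, adjusted 0.843). This mean, taken as the deviation from each gene's mean over arrays, was 1.12 in HFD-father 1 and between -0.24 and 0.13 in the other 10 arrays, and its level ran from 5.00 to 5.22 over the chow-father and from 5.04 to 6.36 over the HFD-father arrays. Over the 11 arrays it correlated with Lef1 at Pearson's r = 0.932 (permutation p = 0.0153) and Spearman's rho = 0.555 (permutation p = 0.0811), and with Tcf7 at r = 0.891 (permutation p = 0.0104) and rho = 0.664 (permutation p = 0.0302). Without HFD-father 1 and HFD-father 5, r was 0.559 for Lef1 and 0.705 for Tcf7, and within the first run 0.960 and 0.930. After adjustment over all 344 relations of the 43 genes to 8 marker lists, p was 0.298 for both r values (0.620 for the rho of Lef1, 0.502 for that of Tcf7), and 0 of the 344 passed by either measure. HFD-father 1 was also highest for the means of endothelial (0.28), ductal (0.65) and macrophage (0.37) markers and lowest for islet endocrine markers (-0.16). Against endothelial markers r was 0.611 for Lef1 (permutation p = 0.0614, adjusted 0.449; rho = 0.182, permutation p = 0.596, adjusted 0.895) and 0.638 for Tcf7 (permutation p = 0.0417, adjusted 0.398; rho = 0.345, permutation p = 0.299, adjusted 0.822). Without chow-father 4 and HFD-father 1 those r values were 0.00963 and 0.0466, and in the first run 0.701 and 0.686. The part of RNA from these cell types in the Lef1 and Tcf7 values was not tested.

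**Figure D5:**
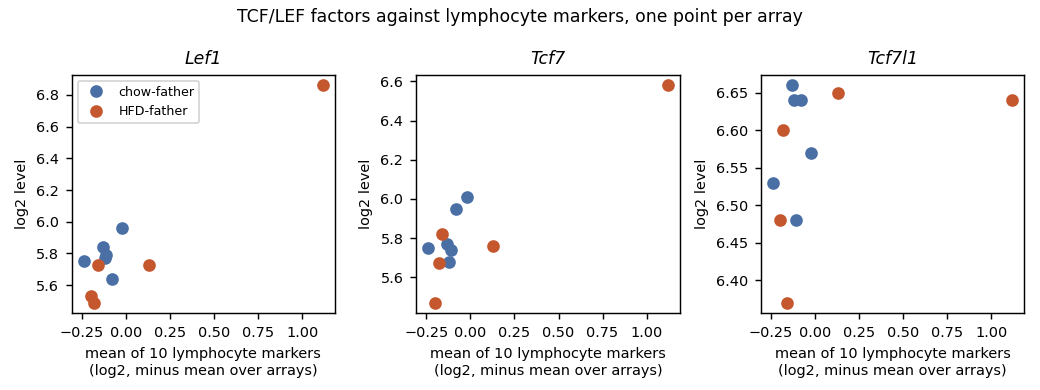
Log2 level of Lef1, Tcf7 and Tcf7l1 (vertical) against the mean of 10 lymphocyte markers (horizontal, log2 deviation from each marker's mean over arrays), 1 point per array, chow-father blue and HFD-father orange. HFD-father 1 lies at 1.12 on the horizontal axis and highest for Lef1 and Tcf7 but not for Tcf7l1.

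Tcf7l1, a factor that mostly represses Wnt target genes, did not share the high value of that array. It read 6.64, 6.53, 6.66, 6.64, 6.57 and 6.48 in chow-father and 6.64, 6.48, 6.37, 6.60 and 6.65 in HFD-father arrays, and differed by -0.04 ± 0.06 (SE; 95% interval -0.17 to 0.10). Its other 2 probes were dimmer, at means of 5.97 and 5.27, and each differed by 0.03, so the probes do not share a direction.

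No relation between these genes and marker lists passed adjustment. The 3 of lowest permutation p are given, and then the ductal markers for the bright antagonists, all chosen after their values were seen. Lrp5 against 11 islet endocrine markers gave r = -0.866 (permutation p = 0.00051, adjusted 0.129) and rho = -0.873 (permutation p = 0.00077, adjusted 0.210). That r was -0.728 without chow-father 4 and HFD-father 1 and -0.987 in the first run. Against 11 macrophage markers, Dkk2 gave r = 0.847 (permutation p = 0.00075, adjusted 0.129) and rho = 0.782 (permutation p = 0.00655, adjusted 0.447), and Fzd4 gave r = 0.875 (permutation p = 0.00138, adjusted 0.158) and rho = 0.845 (permutation p = 0.00183, adjusted 0.210). Without HFD-father 1 and chow-father 5 these r values were 0.765 and 0.815, and in the first run 0.859 and 0.902. For Lrp5 and Dkk2 the relations were not particular to 1 list. Lrp5 gave r = 0.714 against ductal (permutation p = 0.0122, adjusted 0.298) and 0.655 against acinar markers (permutation p = 0.0240, adjusted 0.318). Dkk2 gave r = -0.734 against islet endocrine (permutation p = 0.0107, adjusted 0.298) and 0.685 against endothelial markers (permutation p = 0.0205, adjusted 0.298).

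Both bright antagonists ran inversely to ductal markers. Wif1 gave r = -0.760 (permutation p = 0.00544, adjusted 0.298) and rho = -0.845 (permutation p = 0.00168, adjusted 0.210), and Sfrp5 gave r = -0.698 (permutation p = 0.0140, adjusted 0.298) and rho = -0.691 (permutation p = 0.0221, adjusted 0.455). Apc did so as well, at r = -0.753 (permutation p = 0.00779, adjusted 0.298) and rho = -0.718 (permutation p = 0.0169, adjusted 0.447). Without chow-father 4 and HFD-father 1 the r values were -0.661 for Wif1, -0.456 for Sfrp5 and -0.583 for Apc, and in the first run -0.768, -0.743 and -0.851. Sfrp5 also ran with islet endocrine markers, at r = 0.705 (permutation p = 0.0144, adjusted 0.298) and rho = 0.691 (permutation p = 0.0225, adjusted 0.455), and inversely to acinar markers, at r = -0.637 (permutation p = 0.0253, adjusted 0.318) and rho = -0.655 (permutation p = 0.0327, adjusted 0.502). Those r values were 0.451 without chow-father 4 and HFD-father 1 and -0.386 without chow-father 1 and chow-father 4, and in the first run 0.742 and -0.735. The inverse relation was not particular to ductal markers for Wif1 and Apc either. Against acinar markers Wif1 gave r = -0.678 (permutation p = 0.0174, adjusted 0.298) and Apc r = -0.690 (permutation p = 0.0198, adjusted 0.298). Without chow-father 1 and chow-father 4 these acinar r values were -0.798 and -0.731. Chow-father 4 and HFD-father 1 hold the extremes of the ductal mean (-0.92 and 0.65) and of Sfrp5 (11.28 and 9.84).

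None of the 8 marker lists differed between groups after adjustment (exact permutation test of the list mean within runs, two-sided, 210 splits, lowest adjusted p = 0.0762). That lowest value belonged to 7 Schwann cell markers, at 0.03 ± 0.04 (SD, n = 6) against -0.04 ± 0.03 (SD, n = 5), a difference of -0.07 with an unadjusted exact p of 0.00952. Of the 7 markers 3 lay higher in HFD-father arrays, and 4 had a mean level under that of the median probe. The Schwann list mean ran in levels from 5.84 to 5.93 over the chow-father and from 5.76 to 5.84 over the HFD-father arrays, in the same dim range as the ligands. The Schwann list and the ligands set against it here were chosen by their differences between the groups. Correlations over all arrays carry those differences, so their p-values cannot show a relation beyond that choice, and no conclusion is drawn from them. Against this list Wnt9b gave r = 0.561 (permutation p = 0.0736, adjusted 0.465; rho = 0.591, permutation p = 0.0606, adjusted 0.525) and Wnt9a r = 0.566 (permutation p = 0.0698, adjusted 0.462; rho = 0.591, permutation p = 0.0611, adjusted 0.525). Wnt10b gave r = 0.623 (permutation p = 0.0397, adjusted 0.398; rho = 0.464, permutation p = 0.155, adjusted 0.702) and Wnt6 r = 0.683 (permutation p = 0.0197, adjusted 0.298; rho = 0.673, permutation p = 0.0274, adjusted 0.496). Wnt8a, the ligand with the highest positive difference, gave r = -0.817 (permutation p = 0.00283, adjusted 0.243; rho = -0.773, permutation p = 0.00785, adjusted 0.447). Without chow-father 1 and HFD-father 5 these r values were 0.474, 0.563, 0.693, 0.489 and -0.720 in the same order, and in the first run 0.551, 0.192, 0.382, 0.647 and -0.882. With the group and run means removed from both sides they were -0.199 for Wnt9b, -0.816 for Wnt9a, 0.107 for Wnt10b, 0.370 for Wnt6 and -0.867 for Wnt8a, so within groups the 4 lower ligands did not share a sign. The adjusted exact p was 0.843 for each of the other 7 lists.

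Genes around these members in the pathway gave no called difference either. Of 66 measured genes on 8 lists of Wnt pathway genes, 31 lay higher and 35 lower, with a median of 0.00, 0 passed the adjusted test (lowest limma adjusted p = 0.516) and 2 had an unadjusted p under 0.05, both lower. For these lists together, as for all genes, the background is that 8.25% lie under that p. The target list also holds Axin2, Lef1 and Tcf7, which are among the 43.

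R-spondins, which strengthen Wnt signals by removing ubiquitin ligases from Frizzled receptors, and their receptors and those ligases lay lower in 6 of 6, with a median of -0.03. Over all genes 48.1% lay lower. Rspo3 and Rnf43 differed by only -0.01 each. Rspo1, Rspo2 and Rspo3 had dim probes (means 5.96, 5.005 and 4.759), within the levels of the dim ligands, where 65.4% of all genes lay lower. Rspo2 averaged 5.07 ± 0.11 (SD, n = 6) and 4.93 ± 0.07 (SD, n = 5), a difference of -0.14 ± 0.06 (SE; limma adjusted p = 0.516), and Rspo1 differed by -0.14 ± 0.07. Lgr4, an R-spondin receptor with a bright probe (mean 9.593), differed by -0.01 ± 0.07, and by 0.02 after median centring and 0.03 in a fit with acinar markers as a covariate. Among other receptors, Ror1, a receptor of Wnt5a, averaged 7.91 ± 0.20 and 7.72 ± 0.10 (SD), a difference of -0.19 ± 0.09 (SE; limma adjusted p = 0.534), and Ryk differed by 0.08.

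On the list of 16 measured target genes of beta-catenin, 6 lay higher and 10 lower (median -0.03), where 48.1% of all genes lay lower. Tnfrsf19 differed by -0.15 ± 0.07 (SE; limma adjusted p = 0.528), Ascl2, a stem cell factor of the gut, by -0.17 ± 0.09, and the cyclin gene Ccnd1, with the brightest probe of the list, by -0.07 ± 0.10. Tnfrsf19 and Ascl2 had dim probes (means 5.944 and 5.751), within the levels of the dim ligands, where 65.4% of all genes lay lower. Of the 3 genes of Wnt secretion, Wls, the carrier that takes Wnt proteins to the cell surface, had a mean of 10.588 and differed by 0.10 ± 0.08 (SE), and Notum, an enzyme that inactivates Wnt proteins, by -0.10 ± 0.06.

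The remaining lists had medians from -0.01 to 0.04. Over all genes 48.1% lay lower, and of the 8556 genes left without dim probes 35.7% lay lower. Of 12 Dishevelled and cytoplasmic genes 9 lay higher (median 0.04), with Tnks at -0.07, Dvl1 at 0.08 and the casein kinase gene Csnk1a1 at 0.03. Of 12 nuclear cofactors 4 lay higher (median -0.01), with the co-repressor genes Tle4 and Tle5 at 0.08 and 0.06 and Pygo2 at -0.08. Of 9 further antagonists 4 lay higher (median 0.00), with Kremen2 at -0.13, Dact2 at 0.09 and Kremen1 at 0.03, and of 8 planar polarity genes 5 lay higher (median 0.02), with Celsr2 at -0.08, Prickle2 at 0.11 and Celsr3 at -0.04.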

How the data were processed

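Gene-level values were deposited by the authors as log2, a scale read from their range. Per the submitters' processing notes, RMA and MAS5 were used, with no role or version stated, and further steps are not given in the sources used. In every probe the means of the 2 runs of sample numbers were equal to within 5.83e-05, so values had been centred per run. A second table of exon-level features is not paired with genes in the tables given and was not used.

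The platform table gave 1 symbol for 15097 of the 27342 probes and several for 323, and did not list 11922. Symbols were updated through Entrez numbers to RefSeq (GRCr8) for 15067. The probe of highest mean stood for a gene.

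Groups were compared with limma 3.58.1 (lmFit, eBayes; R 4.3.3), without covariates or filters, two-sided, with Benjamini-Hochberg adjustment over all probes, and tested on simulated data. Marker lists used exact permutation tests, and relations 100000 resamples. Figures used matplotlib 3.10.9 (Python 3.11.15). Replicate numbers did not pair the samples.

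Members, lists and naming rules were chosen with earlier results of these data known. Values of every array are given for the 2 genes of lowest p and the 2 of highest mean level per role, plus Ctnnb1 and Axin2, and of each pathway list the 2 genes of lowest p and the one of highest level are named. Alternatives were a filter on dim probes, blocks for run and replicate number, quantile normalization, the first run alone, median centring, the mean of a gene's probes, eBayes with a trend, array weights, an acinar covariate and each array left out.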

Additional observations from a re-analysis of the deposited data

Results flagged for a closer look

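Single arrays far from the rest of their group, by Dixon's test of the gap, were found in 5 of 130 groups of values, and chance flags about 1 in 20. Lef1 in HFD-father 1 was 6.86 against 5.73 in the next array of its group. Lgr4 in the same array was 9.42, below the next at 9.61. Fzd1 in HFD-father 4 was 4.65, below the next at 4.93. Axin1 in chow-father 3 was 7.92 against 7.76, and Dvl1 in HFD-father 5 was 7.53 against 7.33.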

How the results depend on the processing

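The count of 0 genes past the adjusted threshold held under every alternative run, including each array left out in turn. Without dim probes 18 of the 43 genes were left. There the count of 6 at an unadjusted limma p under 0.05 was 2 (11.1%), against 7.01% of all genes left. It was 3 (6.98%) in the first run alone, after quantile normalization and with the replicate block. The shares of all genes there were 4.29%, 6.42% and 6.17%. With the run block it was 5 (11.6%), against 6.72%. With single arrays left out it ran from 2 (4.65%, against 5.02%) to 7 (16.3%, against 7.99%). The Schwann list difference was -0.06 (exact permutation p = 0.0571) in the first run alone. The replicate number did not pair the samples: correlations of same-numbered deviations ran from -0.318 to 0.330, and only HFD-father 1 was closest to its own number. Of 1334 alternative values for 65 single genes, 1274 kept their direction, 60 turned it and 0 gained a call, and the causes were not tested. A value of 0.00 counted as no direction, so Wnt4, at 0.00, was not among those that turned: it ranged from -0.08 to 0.08 with single arrays left out. In the first run alone Wnt5a turned to 0.03, Wnt5b to 0.06, Wnt2 to 0.07, Wnt2b to -0.10, Fzd4 to 0.01, Sfrp4 to 0.01, Sfrp2 to -0.05, Apc to -0.03, and Dvl1 and Tle5 to -0.01. Quantile normalization turned Wnt3a to 0.01, Wnt16 and Sfrp4 to 0.03 and Apc to -0.02, and median centring turned Wnt16 and Sfrp4 to 0.01 and Lgr4 to 0.02. The acinar covariate turned Wnt16 to 0.01 and Lgr4 to 0.03. Array weights turned Wnt10a to -0.01, Lef1 to -0.04, Tcf7 to -0.05 and Lgr4 to 0.02. The replicate block turned Sfrp4 to 0.01 and Sfrp2 to -0.05, and the mean of the probes turned Tcf7l1 to 0.01. With single arrays left out, the genes that turned ranged from -0.07 to 0.02 (Wnt2), -0.05 to 0.02 (Wnt3a and Wnt16), -0.03 to 0.07 (Wnt10a and Kremen1), -0.04 to 0.09 (Wnt2b), -0.09 to 0.01 (Fzd4), -0.08 to 0.02 (Wif1), -0.01 to 0.16 (Sfrp1), -0.03 to 0.11 (Dkk2), -0.03 to 0.01 (Sfrp4), -0.07 to 0.14 (Sfrp2), -0.02 to 0.05 (Axin2), -0.01 to 0.06 (Apc), -0.06 to 0.01 (Tcf7l1), -0.17 to 0.17 (Lef1), -0.13 to 0.14 (Tcf7) and -0.03 to 0.04 (Lgr4). The share of the 43 genes that lay lower was 62.8% (counting Wnt4 by its sign before rounding), 53.5% after median centring and 55.8% after quantile normalization, where 37.2% and 49.0% of all genes lay lower. No signal over background could be computed from these values, which limits what the dim probes show.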
